A study of Rattus norvegicus with 40 samples.

Results

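The 150 transcripts described here were those whose abundance in the hippocampus varied most from rat to rat within a genotype. They were chosen by their measured spread. In each of 4 tissues, transcripts with a mean of at least 5 TPM (an abundance per transcript, scaled for its length and for library size) and at least 20 estimated counts in all 10 samples were kept. The genotype means of log2(TPM + 1) were subtracted, and the SD of the remaining deviations was taken over the 10 samples. Each transcript was given to the tissue of its largest SD. Transcripts whose mean there was at least 20 times that of every other tissue were dropped. Of 31715 transcripts in the files, 12827 passed the limits in the hippocampus and 6393 were given to it. A further 1292 were dropped as restricted to it, which left 5101 to rank, so the 150 members were the top 2.94%. The spread, the rats behind it and the correlations between members are therefore given as descriptions, with no test.

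The samples came from 12 rats of the inbred spontaneously hypertensive strain SHR/OlaIpcv. Of these, 6 were wild type and 6 were SHR-Tti2+/- littermates, heterozygous for a deletion that zinc-finger nucleases made in Tti2 in every tissue, and all heterozygotes descended from 1 mutant line. For the liver, soleus muscle, fat (peritoneal in the labels, perirenal in the methods) and hippocampus, the 5 samples of best RNA quality per genotype were sequenced, 40 in all. The hippocampus samples were those of wild-type rats 1, 2, 3, 5 and 6 and of SHR-Tti2+/- rats 1 to 5. Rat numbers are those of the labels, and the same number stands for a different animal in each genotype. Each rat gave 1 hippocampus sample, so the animal, its dissection and its library cannot be told apart.

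The hippocampus is a folded cortical structure of the temporal lobe, needed for spatial and contextual memory. Its principal neurons are the pyramidal cells of the CA fields and the granule cells of the dentate gyrus, and it borders on choroid plexus, meninges, thalamus and white matter. Rats of an inbred strain share nearly all of their genome, and animals of 1 genotype served as replicates here. Tti2 acts with Telo2 and Tti1 as a chaperone complex for large kinases such as mTOR and ATM. The files identify transcripts by Ensembl ID and do not pair them with genes, and the gene table used here matched 0 of the IDs. The members are thus described by rank of SD, length and abundance. No marker genes of cell types and no level of Tti2 could be read. In bulk tissue, fewer cells of a type and less RNA per cell cannot be told apart.

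Each hippocampus sample correlated with the other hippocampus samples at a mean r of 0.979 to 0.993 and with no sample of another tissue above 0.749, across transcripts. The total estimated count was between 19176393 and 32713126, and the highest belonged to wild-type rat 2. In the plane of principal components 1 and 2 that sample was the most distant, 128 units from the rest on average, followed by wild-type rat 1 at 89.7 and the other 8 at 38.2 to 63.2. Results that rest on wild-type rat 2 are given below with and without it.

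The SD of the members on the log2(TPM + 1) scale ran from 1.98 at rank 1 to 0.55 at rank 150, with a median of 0.64, whereas the median over all 12827 transcripts was 0.13. An SD above 1 was found for 13 members. The limit fell in a continuous range: the last 2 members had an SD of 0.550, and the next 2 transcripts, just outside the list, had 0.547 and 0.544. The mean abundance of the members had a median of 10.3 TPM and lay between 5.04 and 297 TPM. Counting error was small beside the spread: the SD that Poisson counting alone would give had a median of 0.08 and was at most 0.22. The SD of every member was at least 3.03 times its counting SD. The median length was 2485.5 bases, compared with 2124 over all 12827 transcripts.

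Of the 150 members, 94 had their highest mean TPM in the hippocampus. In liver 24 were more abundant than in the hippocampus, 5 of them at least 10-fold, in muscle 15 and in fat 44, and a transcript could be higher in several tissues. In the other tissues, 82 members passed the same limits. The 39 that did so in liver had a median SD of 0.17 there and of 0.68 in the hippocampus. For the 37 in muscle these medians were 0.27 and 0.65, and for the 62 in fat 0.23 and 0.67. The lower values elsewhere are partly set by the rule, which gave each transcript to the tissue of its largest SD.

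The spread of the members came mainly from 2 animals, as did that of all 12827 transcripts. For each transcript, the rat with the largest absolute deviation from its genotype mean was taken as its driving rat. Wild-type rat 2 drove 76 members (50.7%), 45 of them upward and 31 downward. Wild-type rat 1 drove 26 (17.3%), 22 of them downward. SHR-Tti2+/- rats 5 and 3 followed with 11 and 10, and each of the other 6 rats drove between 2 and 7. In all, 118 members were driven by wild-type and 32 by SHR-Tti2+/- animals. Over all 12827 transcripts, each SHR-Tti2+/- rat drove 3.94% to 5.97%, and wild-type rats 3, 5 and 6 drove 4.99%, 3.84% and 4.13%. Of the summed squared deviations of the members, wild-type rat 2 held 41.4% and wild-type rat 1 11.8%. Over all transcripts these shares were 39.4% and 13.2%.

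**Figure D1:**
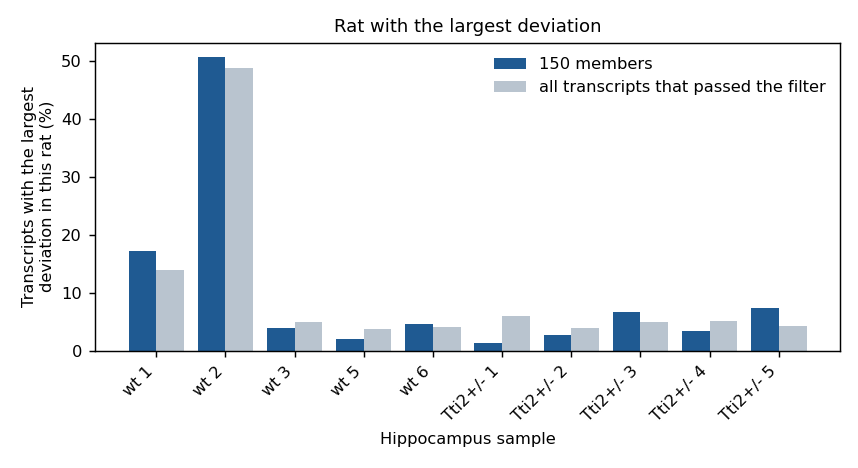
Share of transcripts (y axis, percent) whose largest deviation from the genotype mean was in the hippocampus sample named on the x axis (wt, wild type), for the 150 members (dark bars) and for all 12827 transcripts that passed the limits (light bars). Wild-type rat 2 held 50.7% of the members and 48.8% of all transcripts.

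This distribution over animals was close to that of the whole hippocampus transcriptome, in which wild-type rat 2 drove 48.8% of transcripts and wild-type rat 1 14.0%. The direction differed more: wild-type rat 2 stood above its genotype mean in 59.2% of the members it drove and in 28.1% of all transcripts it drove. The rule itself bears on this contrast. A single high sample can lift a transcript past the limit on the mean, whereas the limit on counts in every sample bounds low deviations. The size of that part was not tested. The deviations were concentrated in single animals. The driving rat held a median of 51.7% of the summed squared deviations of a member, compared with 43.0% over all transcripts, and more than 50% was held by 1 rat in 77 members (51.3%), compared with 36.1% of all transcripts. In lists of 150 made by the same rule in the other tissues, the most frequent driver was wild-type rat 6 in liver with 26 transcripts, wild-type rat 5 in muscle with 35, and wild-type rat 3 in fat with 43. Their median SDs were 0.48, 0.64 and 0.63. A hippocampus list chosen again without wild-type rat 2 had wild-type rat 1 as its most frequent driver, with 45 transcripts, close to the count in fat.

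Most members fell into groups that moved together. The first principal component of the deviations held 52.0% of their squares, the second 16.4% and the third 8.86%. Over all 12827 transcripts the first component held 49.4%. Of the 11175 pairs of members, 1293 (11.6%) had a Pearson r above 0.8 over the 10 deviations and 562 (5.03%) an r below -0.8. The mean r over all pairs of members was 0.045. Such shares of pairs were not computed over all transcripts, so they cannot be called particular to the members. All pairs share the same 10 libraries, and members may be transcripts of the same gene, so these correlations are descriptive. Average-linkage clustering on 1 - r, cut at 0.5, gave 7 groups of at least 5 members that together held 117. The groups were made from these same r values, so the mean r within a group is partly set by the grouping. That holds in part also for its mean r over fewer animals. The 3 largest held 97, and 33 members belonged to no such group.

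**Figure D2:**
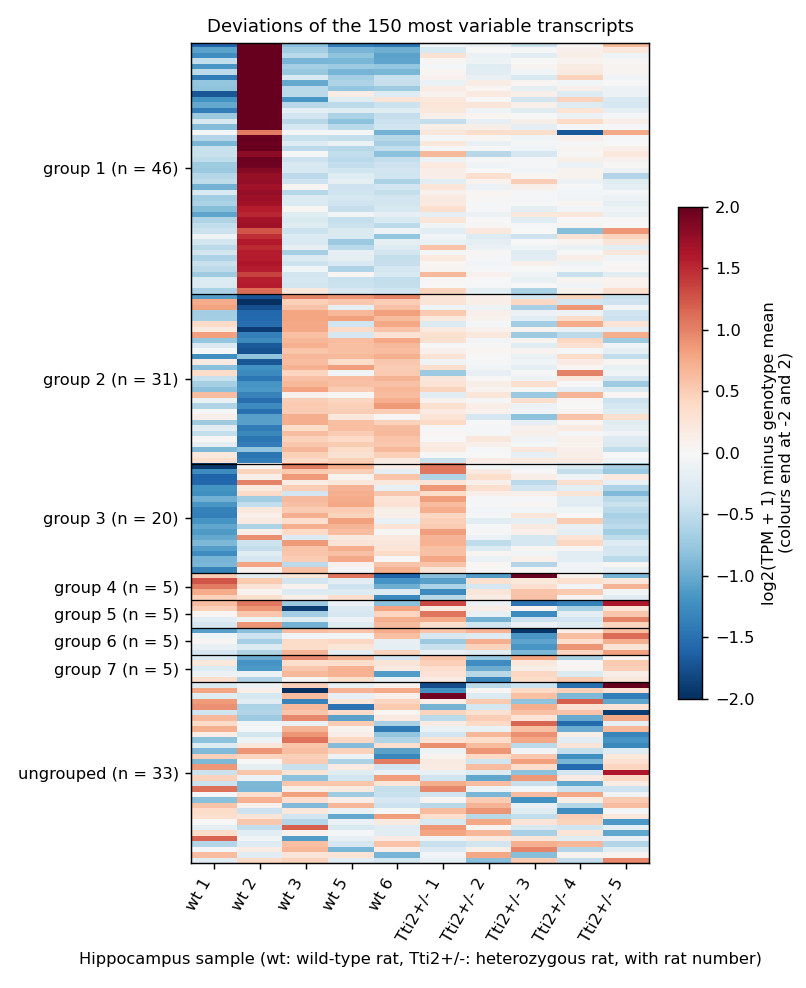
Deviation of log2(TPM + 1) from the genotype mean (colour, ending at -2 and 2) for the 150 members (rows, ordered by covarying group and then by rank) in the 10 hippocampus samples (columns; wt, wild type). The 46 transcripts of group 1 are high in wild-type rat 2, the 31 of group 2 low in the same animal, and the 20 of group 3 low in wild-type rat 1.

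Group 1 consisted of 46 transcripts that were highest in wild-type rat 2 in 46 of 46 cases. The animal in which the deviation was largest was wild-type rat 2 for 45 of them and SHR-Tti2+/- rat 4 for the other. The mean deviation of wild-type rat 2 was 2.08 on the log2 scale, with a range of 1.04 to 5.24 over transcripts. The means of the other wild-type rats lay between -0.71 and -0.40, which balance it by construction, and those of the SHR-Tti2+/- rats between -0.07 and 0.09. The highest sample exceeded the next by a median of 4.37-fold, and by at least 2-fold in 43 of the 46. The transcripts were long, with a median of 3496.5 bases. Over all transcripts that passed the limits, the median deviation of wild-type rat 2 was -0.08 in the shortest and -0.10 in the longest of 4 equal classes of length. The mean abundance of group 1 had a median of 13.7 TPM, and 25 of its transcripts were most abundant in the hippocampus. This library also had the highest total count, whose part in the result was not tested.

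The leading member of group 1, and of the whole list, was ENSRNOT00000025858.7, a transcript of 2717 bases. Its abundance in wild-type rat 2 was 498 TPM, and in wild-type rats 1, 3, 5 and 6 it was 3.39, 6.36, 4.06 and 3.82 TPM. In SHR-Tti2+/- rats 1 to 5 it was 4.87, 4.51, 3.56, 5.21 and 8.48 TPM. A single animal was therefore 58.7-fold above the next, and the 9 others overlapped between the genotypes. Its mean was 6.76 TPM in liver, 2.12 TPM in muscle and 17.2 TPM in fat, below the level of wild-type rat 2's hippocampus in each.

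The next members of this group had the same shape at lower levels. Rank 3, a transcript of 3486 bases, was at 112 TPM in wild-type rat 2 and at 2.61 to 4.39 TPM elsewhere. That of rank 4, of 5095 bases, was at 76.7 TPM in this animal and at 1.63 to 3.29 TPM in the other 9. At rank 6, a transcript of 4147 bases reached 47.2 TPM there, and its mean in muscle was 176 TPM. In each case a single hippocampus stood far above the range of all others, which were below 5 TPM. These 3 transcripts thus reached the limit on the mean only through wild-type rat 2. So did other transcripts of the group, among them those of ranks 1, 10, 22 and 35. Their means over the other 9 samples were also below 5 TPM. How many of the 46 did so was not counted. At the lower end of the group the contrast was weaker. The most abundant member, a transcript of 2324 bases with a mean of 21211 TPM in liver, was at 609 TPM in wild-type rat 2, at 180, 327, 222 and 211 TPM in the other wild-type rats and at 177 to 374 TPM in the SHR-Tti2+/- rats.

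The covariation of group 1 was that of 1 animal. The mean r between its members was 0.89 over the 10 samples, 0.12 once wild-type rat 2 was left out and genotype means were recomputed, and 0.07 within the 5 SHR-Tti2+/- rats. Beyond the hippocampus of wild-type rat 2 these transcripts thus had little in common in their variation.

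Group 2 held 31 transcripts that were low in wild-type rat 2, the lowest of the 10 samples in 28 of them. The mean deviation of this animal was -1.42, with a range of -2.27 to -0.79. Wild-type rat 1 averaged -0.20, wild-type rats 3, 5 and 6 averaged 0.61, 0.42 and 0.59, and the SHR-Tti2+/- rats lay between -0.20 and 0.18. In 21 of the 31, wild-type rats 1 and 2 were the pair of lowest samples. The next-lowest sample was a median of 2.25-fold above the lowest. Group 2 transcripts were shorter, with a median of 1766 bases, had a median abundance of 21.1 TPM, and 22 of them were most abundant in the hippocampus.

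This group was led by the transcript of rank 18, of 1179 bases, which was at 81.0 and 52.7 TPM in wild-type rats 1 and 2, at 353, 322 and 349 TPM in wild-type rats 3, 5 and 6, and at 313, 281, 205, 357 and 193 TPM in SHR-Tti2+/- rats 1 to 5. Both low animals were well below the lowest of the other 8. Another abundant one, of rank 64 and 1204 bases, was at 65.9 TPM in wild-type rat 2, at 218 TPM in wild-type rat 1 and at 248 to 343 TPM in the others, so that here wild-type rat 2 stood further apart. Rank 20, a transcript of 834 bases, was at 2.80 TPM in wild-type rat 2 and at 24.6 to 49.4 TPM in the other 9, with wild-type rat 1 inside their range at 29.7 TPM.

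Unlike in group 1, part of the covariation of group 2 was found among the remaining animals. The mean r was 0.77 over all samples, 0.43 without wild-type rat 2 and 0.29 within the SHR-Tti2+/- rats.

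Group 3 held 20 transcripts that were low in wild-type rat 1, which drove 20 of 20 and was the lowest sample in 19. Its mean deviation was -1.22. Wild-type rat 2 averaged 0.06, with an SD of 0.49 over the transcripts. In 7 of the 20, wild-type rats 1 and 2 were the pair of lowest samples. The driving rat of this group was thus not that of groups 1 and 2. Among SHR-Tti2+/- rats, rat 1 averaged 0.58 and was the highest of the 10 samples in 13 transcripts, and rat 5 averaged -0.45. The median length was 2457 bases and the median abundance 10.9 TPM, and 14 of the 20 were most abundant in the hippocampus.

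The transcript of rank 21, of 1557 bases, was at 2.08 TPM in wild-type rat 1 and at 11.2, 23.0, 18.3 and 11.9 TPM in wild-type rats 2, 3, 5 and 6. In SHR-Tti2+/- rats 1 to 5 it was at 36.6, 16.5, 16.0, 13.8 and 10.5 TPM. Wild-type rat 1 lay below all others and SHR-Tti2+/- rat 1 above all others. Rank 66, a transcript of 1260 bases, was far more abundant in fat (mean 1584 TPM) than in the hippocampus. It was at 12.8 TPM in wild-type rat 1, at 80.5 TPM in wild-type rat 2 and at 26.5 to 48.0 TPM in the other 8.

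The members of group 3 also varied together among the SHR-Tti2+/- rats, none of which drove them, although the grouping used these rats as well. The mean r of the group was 0.73 over all samples, 0.80 without wild-type rat 2 and 0.60 within the SHR-Tti2+/- rats. The value of 0.80 still includes wild-type rat 1, the driving rat of this group. It is thus unlike those of groups 1 and 2, and a mean r without wild-type rat 1 was not computed. Of the 3 large groups it had the highest mean r among SHR-Tti2+/- rats. In the smaller groups 4, 5, 6 and 7 that value was 0.59, 0.67, 0.77 and 0.79.

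**Figure D3:**
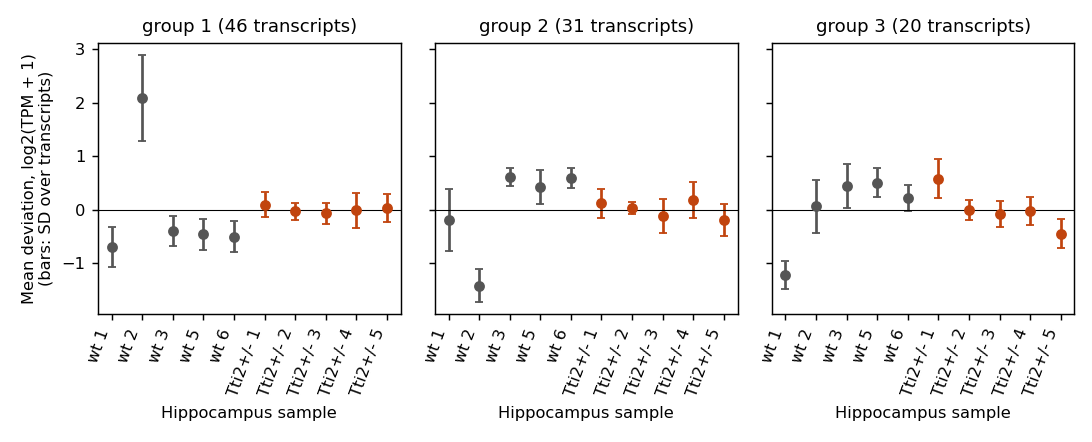
Mean deviation of log2(TPM + 1) from the genotype mean (y axis) in each hippocampus sample (x axis; wt, wild type, grey; Tti2+/-, orange) for the 3 largest covarying groups; bars are the SD over the transcripts of a group. Wild-type rat 2 is at 2.08 in group 1 and -1.42 in group 2, and wild-type rat 1 at -1.22 in group 3.

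In the other tissues the same animals had much smaller mean deviations for these transcripts. That is partly set by the rule, which gave each transcript to the tissue of its largest SD. The group 1 transcripts that passed the limits there had a mean deviation in wild-type rat 2 of -0.05 in liver (14 transcripts), -0.05 in muscle (15) and 0.06 in fat (21). For group 2, the mean deviation of this rat was -0.08 in liver (4), -0.14 in muscle (7) and 0.00 in fat (14). For group 3, that of wild-type rat 1 was 0.15 in liver (5), the highest of the wild-type rats there, and -0.07 in fat (4). No muscle sample of this rat was sequenced. Over all rats and the 3 groups, these means lay between -0.29 and 0.23 in the other tissues.

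The 4 smaller groups held 5 transcripts each. Group 4 was low in wild-type rat 6 (mean deviation -1.06) and SHR-Tti2+/- rat 1 (-0.88) and high in SHR-Tti2+/- rat 3 (0.90) and wild-type rat 1 (0.80). The mean of SHR-Tti2+/- rat 3 had an SD of 1.07 over the 5 transcripts. That rat was the highest sample in 2 of them, and its deviation was 2.79 for the leading one. The leading transcript of group 4, of rank 5 and 3493 bases, was at 8.21, 4.69, 6.77, 12.7 and 1.16 TPM in wild-type rats 1, 2, 3, 5 and 6 and at 1.01, 0.667, 24.0, 2.84 and 0.886 TPM in SHR-Tti2+/- rats 1 to 5. Its levels were spread over a wide range within both genotypes, which overlapped.

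Group 5 was high in SHR-Tti2+/- rats 5 and 1 (mean deviations 0.77 and 0.73) and low in wild-type rat 3 (-0.90), and 0 of its 5 transcripts were most abundant in the hippocampus. The transcript of rank 9, of 3971 bases, had its highest levels in SHR-Tti2+/- rats 5 and 1 at 22.3 and 18.1 TPM and wild-type rats 2 and 1 at 16.5 and 11.8 TPM, and lay between 1.75 and 6.71 TPM in the other 6. This member had no single outlying sample.

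Group 6 was lowest in SHR-Tti2+/- rat 3 in 5 of 5 transcripts (mean deviation -1.25). Its leading member, ENSRNOT00000079015.1, of 504 bases, was at 15.6 TPM in that rat and at 94.3, 103, 67.8 and 96.1 TPM in SHR-Tti2+/- rats 1, 2, 4 and 5. In wild-type rats 1, 2, 3, 5 and 6 it was at 31.6, 37.7, 105, 102 and 114 TPM, so that wild-type rats 1 and 2 were low as well. Group 7, led by the transcript of rank 50, was low in SHR-Tti2+/- rat 2 (-0.96) and wild-type rat 2 (-0.81).

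**Figure D4:**
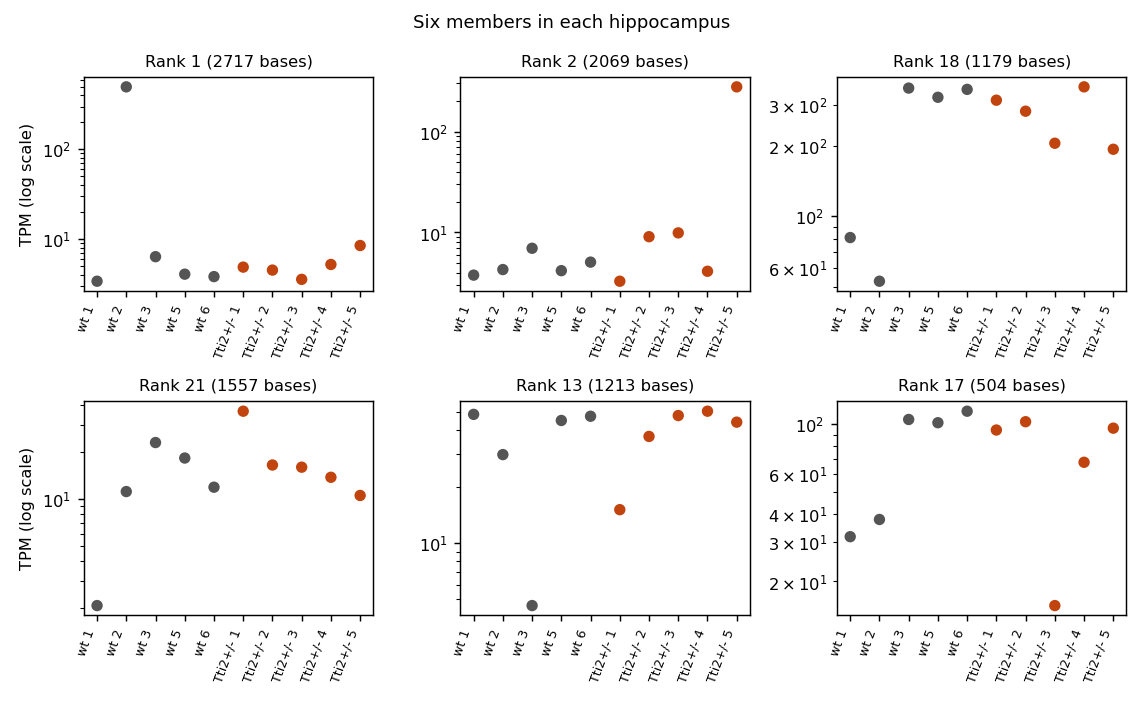
Abundance (y axes, TPM on log scales that differ between panels) of 6 members in each hippocampus sample (x axes; wt, wild type, grey; Tti2+/-, orange). The transcript of rank 1 is at 498 TPM in wild-type rat 2 and that of rank 2 at 278 TPM in Tti2+/- rat 5, while those of ranks 18, 21, 13 and 17 have 1 to 3 low samples.

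The 33 members outside the groups had varied drivers, most often SHR-Tti2+/- rat 5 with 9, and a mean r of 0.02 with each other. ENSRNOT00000013176.5, of 1213 bases and rank 13, was low in wild-type rat 3 at 4.63 TPM, beside 48.7, 29.7, 45.1 and 47.6 TPM in wild-type rats 1, 2, 5 and 6. In SHR-Tti2+/- rats 1 to 5 it was at 15.1, 37.1, 48.0, 50.6 and 44.2 TPM, rat 1 being the lowest of them. The longest member, of 15336 bases and rank 19, was at 19.6 TPM in SHR-Tti2+/- rat 1 and at 1.08 to 7.35 TPM in the others. Rank 31, a transcript of 1497 bases, was at 8.31 TPM in SHR-Tti2+/- rat 5 and at 23.8 to 53.5 TPM in the others. In each of these the extreme sample was more than 2-fold away from the next.

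ENSRNOT00000003921.4, of rank 2 and 2069 bases, was an abundant liver transcript, with a mean of 76699 TPM in liver, 113 TPM in fat and 2.04 TPM in muscle. In the hippocampus it was at 278 TPM in SHR-Tti2+/- rat 5 and at 3.29, 9.08, 9.91 and 4.13 TPM in SHR-Tti2+/- rats 1 to 4. In wild-type rats 1, 2, 3, 5 and 6 it was at 3.78, 4.29, 6.98, 4.18 and 5.09 TPM. The sample of SHR-Tti2+/- rat 5 stood far above the range of the other 9, in which the genotypes overlapped. The transcript of rank 65, of 5188 bases, with a mean of 3418 TPM in liver, was also highest in this sample, at 18.5 TPM beside 2.28 to 5.48 TPM in the other 9.

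Other transcripts abundant in liver were also high in this sample. Of 455 transcripts, members left out, with a mean at least 100-fold higher in liver than in the hippocampus, 430 were above 0 in some hippocampus sample, and 363 of these (84.4%) were highest in SHR-Tti2+/- rat 5. Their summed abundance was 2078 TPM in this sample and 317, 339, 327 and 252 TPM in SHR-Tti2+/- rats 1 to 4. In wild-type rats 1, 2, 3, 5 and 6 it was 338, 850, 299, 297 and 284 TPM. The sum in wild-type rat 2 was 66.0% from 1 transcript at 562 TPM and was 289 TPM without it, inside the range of the other wild-type rats, whose sums still include it. In SHR-Tti2+/- rat 5 the highest transcript gave 12.1% of the sum, and 190 transcripts were at least 2-fold above the median of the samples other than these 2.

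Taken against the median of the other 9 samples, the excess in SHR-Tti2+/- rat 5 came to 0.448% of the liver level for the summed transcripts and to 0.356% for the transcript of rank 2. The 212 muscle-rich and 213 fat-rich transcripts, defined in the same way, summed to 230 and 323 TPM in wild-type rat 2 and to 132 and 281 TPM in SHR-Tti2+/- rat 5. They summed to 126 to 137 TPM and 216 to 249 TPM in the other 8 samples. The part of RNA from other tissues in the levels of the members was not tested.

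**Figure D5:**
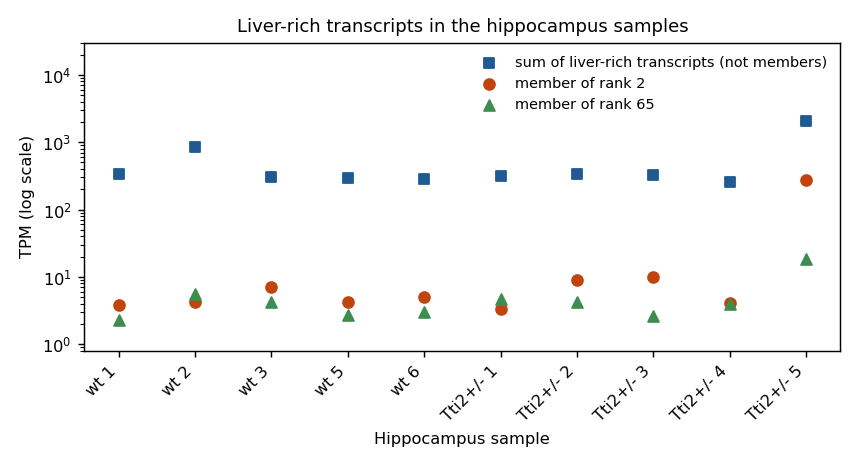
Abundance (y axis, TPM, log scale) in each hippocampus sample (x axis; wt, wild type) of the members of rank 2 (circles) and rank 65 (triangles) and of the sum of 455 liver-rich transcripts that are not members (squares). All 3 are highest in Tti2+/- rat 5, at 278, 18.5 and 2078 TPM.

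The genotype means had been removed before the members were chosen, so the size of the difference between the genotypes was not used in the choice. The spread within genotypes was used, and it is also the error against which that difference is tested and the reason that values of the genotypes overlap. Counts of members called or not overlapping are thus partly set by the choice and are given as descriptions. No difference between SHR-Tti2+/- and wild-type rats was called for the members: 0 of 150 passed both a Benjamini-Hochberg adjusted p under 0.1 in edgeR's quasi-likelihood test and a limit of 1.5-fold on the size of the change. Over all 20712 tested hippocampus transcripts 1 was called (0.00483%), and it was not a member. DESeq2 called 0 members and 11 transcripts in all (0.0531%), and it gave no adjusted p for 37 members. Those of ranks 1, 2, 3 and 4 were among these 37, which DESeq2 could not call. At an unadjusted p under 0.05 the edgeR test had 12 members (8%) and 875 of all transcripts (4.22%), and DESeq2 had 4 members (3.48% of those with a p-value) and 857 of all transcripts (4.18%). The smallest adjusted p of a member by edgeR was 0.939. The genotypes did not overlap in 0 of 150 members and in 245 (1.18%) of all tested transcripts, a difference that the choice of widely spread members itself favours.

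The members were not shifted to either side: the median log2 fold change of SHR-Tti2+/- over wild-type rats was -0.00, as over all transcripts at 0.00, and 75 of 150 were positive. The members of highest spread had large but imprecise fold changes. That of ENSRNOT00000025858.7 was -4.36 on the log2 scale (SE 1.59, n = 5 per genotype, edgeR adjusted p = 0.939), and without wild-type rat 2 it turned to 0.29. That of ENSRNOT00000003921.4 was 3.64 (SE 1.27, edgeR adjusted p = 0.939), with 1 high sample, that of SHR-Tti2+/- rat 5, and without that sample it was 0.45. ENSRNOT00000013176.5 and ENSRNOT00000079015.1 differed by 0.14 (SE 0.52) and -0.03 (SE 0.49), each less than its error. Both signs turned when single rats were left out. Without wild-type rat 2, 0 of 150 members were called, 5 (3.33%) had an unadjusted p under 0.05 by edgeR, beside 5.35% of all transcripts, and 90 of 150 fold changes were positive, beside 51% of all.

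The list depended on the animals it was drawn from. When it was chosen again without wild-type rat 2, 81 of the 150 members remained, with 1 of the 46 in group 1, 11 of the 31 in group 2 and 19 of the 20 in group 3. The loss from group 1 is partly set by the limit on the mean, which some of its transcripts passed only through this rat. The median SD of the new list was 0.56, its first component held 31.9% of the squares, and wild-type rat 1 drove 45 of its 150 transcripts, followed by SHR-Tti2+/- rat 3 with 18. Without SHR-Tti2+/- rat 5, 134 members remained. Without both wild-type rats 1 and 2, 59 remained, and SHR-Tti2+/- rats 1 and 3 drove 28 and 27 of the new list.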

How the data were processed

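RNA from 40 tissue samples was sequenced as polyadenylated, strand-specific libraries with 75-base single-end reads. The authors quantified transcripts of an Ensembl set with kallisto (0.46.0 in the submitters' processing notes), with sequence bias correction. The deposited files give for each transcript an estimated count, which need not be whole, and the TPM that the authors' software derived from it. Reads shared between similar transcripts are divided by estimation, so abundances of isoforms and paralogs are uncertain.

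Spread, driving rats and groups were computed from TPM in Python 3.11.15 with scipy 1.17.1, with a pseudocount of 1. Fold changes were tested on estimated counts rounded to whole numbers, in R 4.3.3 with edgeR 4.0.16 (TMM, quasi-likelihood, genotype as the single term), for transcripts with at least 5 counts in at least 47% of hippocampus samples. DESeq2 1.42.0 was an alternative. The methods removed an unnamed hippocampus sample; all 10 were kept here. No pair of samples of a genotype agreed within counting noise (chi-square per degree of freedom 6.38 or more). Labels do not state more than separate rats as replicates. The selection and the tests were tested on simulated data.

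By ID, the 2 members of highest SD with an upward and the 2 with a downward largest deviation were named; other members were singled out by rank after their values were seen. The members and lists were chosen with earlier results of these data known. Marker lists for cell types were prepared but could not be used without gene names.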

Additional observations from a re-analysis of the deposited data

Results flagged for a closer look

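Of 32 values examined over the hippocampus samples of each genotype (group means, sums of tissue-rich transcripts, the 4 transcripts named by ID, total counts and distances on the principal components), 8 had a sample separated from its 4 companions by more than 0.71 of the range, Dixon's 95% limit. Chance passes this limit in about 1 in 20 unselected groups of samples. The group means and the transcripts named by ID come from members chosen for such deviations, so for them the limit is a description and no test. In wild-type rat 2 these were the mean deviation of group 1, at 2.08, the abundance of ENSRNOT00000025858.7, at 498 TPM, and the sums of liver-rich, muscle-rich and fat-rich transcripts, at 850, 230 and 323 TPM. In wild-type rat 1 it was the mean deviation of group 3, at -1.22. In SHR-Tti2+/- rat 5 these were the sum of liver-rich transcripts, at 2078 TPM, and the abundance of ENSRNOT00000003921.4, at 278 TPM. The liver-rich sum of wild-type rat 2 was 66.0% from 1 transcript and was 289 TPM without it, whereas the highest transcript gave 12.1% in SHR-Tti2+/- rat 5. Over single members, the same limit was passed by 49 (32.7%) in wild-type and 16 (10.7%) in SHR-Tti2+/- rats, beside 18.5% and 5.36% of all transcripts that passed the limits of the selection.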

How the results depend on the processing

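With median-of-ratios size factors, both other count filters, no fold limit, the replicate block and each sample left out in turn, 0 members were called for genotype (0 to 0 over the left-out samples). Over all hippocampus transcripts 1 was called, 1 to 2 with a sample left out, 11 by DESeq2, 0 with the rat number as a replicate block and 23 by DESeq2 without wild-type rat 2, a setting added after seeing the data. The block left 2 members (1.33%) at an unadjusted p under 0.05, beside 2% of all transcripts, and gave a log2 fold change of 1.55 for ENSRNOT00000003921.4. Same-numbered rats of the 2 genotypes are different animals, and their deviations correlated at -0.39 to 0.00. The labels do not say whether they shared a litter or a batch, and this was not tested. The log2 fold change of ENSRNOT00000025858.7 turned from -4.36 to 0.29 without wild-type rat 2 by edgeR and by DESeq2 (-4.68 to 0.29 with each sample left out). That of ENSRNOT00000013176.5 turned to -0.15 without wild-type rat 3 (-0.15 to 0.34), and that of ENSRNOT00000079015.1 to 0.18 with the replicate block, to between 0.0045 and 0.23 without wild-type rat 3, 5 or 6 or SHR-Tti2+/- rat 3 or 4 (-0.23 to 0.23 over all left-out samples); the cause was not tested. The count driven by the leading rat was 62 to 83 with a sample left out and members kept, 38 with no limit on counts, 45 (wild-type rat 1) when members were chosen again without wild-type rat 2, and 28 (SHR-Tti2+/- rat 1) without wild-type rats 1 and 2, also added later. With no limit on counts, 29 of the 150 members remained in the list, 85 with at least 100 counts, 112 with a pseudocount of 5, 137 with a pseudocount of 0.1 and 134 on log2 CPM. The median SD of the members was 0.51 to 0.68 with a sample left out, 0.72 with a pseudocount of 0.1, 0.48 with 5 and 0.72 on log2 CPM. The share of the first component was 34.2% to 58.8%, lowest without wild-type rat 2. Members without gene names could not be grouped by function, and a single hippocampus per rat limits what can be assigned to an animal.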
